A study of Mus musculus with 3 samples.

Results

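Among nephron progenitors of the fetal mouse kidney, 546 of 7898 cells carried transcripts of major histocompatibility complex class II antigen genes while carrying no transcript of 6 immune cell genes. These cells, called the class II positive cells here, had a summed count of at least 2 unique molecular identifiers (UMIs, each standing for 1 captured RNA molecule) over H2-Aa, H2-Ab1, H2-Eb1 and Cd74. They had 0 UMIs of Ptprc, Tyrobp, Fcer1g, C1qa, C1qb and C1qc, which mark blood cells and macrophages. They were set against 4830 cells with 0 UMIs of all 10 of these genes and at least 1 UMI of Six2, the transcription factor that maintains the progenitors. All cells came from Six2GFP+ mouse embryos at E14.5, sorted for the green fluorescent protein of the Six2GFP strain, with gates against dead cells, debris and doublets, so both sets of cells share strain, age and sort. Each of 3 tubes held pooled kidneys of more than 1 litter, and the tubes were run side by side on 1 chip of the 10x Chromium system with version V2 chemistry. The labels put all 3 samples in 1 group, and every comparison is therefore between cells of the same tube. The cells of the 3 tubes are called libraries 1, 2 and 3 after the number that ends each cell barcode.

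Class II molecules sit on the cell surface and present peptides from the endosomal pathway to helper T cells. An alpha and a beta chain (H2-Aa with H2-Ab1, or H2-Eb1 with an alpha partner) pair in the endoplasmic reticulum with the invariant chain, encoded by Cd74, and H2-DM, a dimer of H2-DMa and H2-DMb products, later exchanges the remnant of the invariant chain for a peptide. Dendritic cells, B cells and macrophages are the usual sources. Other cells can turn the genes on, most often under interferon gamma, through Ciita, a coactivator that binds no DNA itself and acts through the RFX, NF-Y and CREB complexes assembled on class II promoters.

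Several promoters of these genes carry a shared arrangement, shown here for H2-Aa and H2-Eb1, which helped choose the cells, and for H2-DMb1, which was higher in them. The letters searched were GNAAC, part of the X box bound by RFX, followed after 20 to 40 bases by GATTGG, the Y box bound by NF-Y. In the RefSeq promoters of GRCm38.p6, the 120 bases before the start of transcription of H2-Aa (minus strand, chr17:34287824-34287943), H2-Eb1 (plus strand, chr17:34305747-34305866) and H2-DMb1 (plus strand, chr17:34153071-34153190) each hold this pair on the sense strand, with capitals marking both motifs:
H2-Aa: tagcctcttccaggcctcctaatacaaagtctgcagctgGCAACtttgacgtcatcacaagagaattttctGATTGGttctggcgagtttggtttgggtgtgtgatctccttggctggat
H2-Eb1: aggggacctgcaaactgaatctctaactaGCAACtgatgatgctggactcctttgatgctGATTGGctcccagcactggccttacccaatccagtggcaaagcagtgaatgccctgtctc
H2-DMb1: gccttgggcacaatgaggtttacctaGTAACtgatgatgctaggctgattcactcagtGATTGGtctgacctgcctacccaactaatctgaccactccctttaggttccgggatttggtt
The gap between the motifs was 27 bases in H2-Aa, 26 in H2-Eb1 and 27 in H2-DMb1. The pair stood on the sense strand of 173 of 32851 promoters of 250 bases (0.527%), and on either strand of 0.989%. The letters of the Y box alone were in 14.6% of promoters on either strand. The pair was also found before H2-Oa, H2-Ob and H2-Eb2, and not in the windows before the listed starts of H2-DMa or H2-DMb2. The letters were chosen with these sequences in view, and a match is a description of the sequence, not of binding. H2-Ab1 and Ciita are named only.

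The kept cells held 121978893 UMIs, with medians per cell of 15913.5 UMIs in library 1, 11915 in library 2 and 15815 in library 3. Library 2 stood apart in ribosomal protein genes, which took 12.9% of its UMIs, against 24.6% in library 1 and 21.0% in library 3. Of all barcodes, 22 occurred in more than 1 library, and 4 of them were class II positive cells. The depth per class II positive cell was slightly above that of the comparison cells, with medians of 17204, 12446 and 17109 UMIs against 16083, 12066 and 15807 UMIs in libraries 1, 2 and 3. The 5.32% of kept cells with the highest doublet scores took in 10.7%, 7.98% and 10.3% of class II positive cells, against 4.79%, 5.59% and 5.24% of comparison cells. The part of depth and of doublets in the results was not tested except by the values without those cells given below.

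Class II positive cells made up 5.89% of library 1 (178 of 3024 cells), 7.72% of library 2 (213 of 2760 cells) and 7.33% of library 3 (155 of 2114 cells), a mean of 6.98 ± 0.965% (SD, n = 3). The exact 95% binomial intervals were 5.07 to 6.79%, 6.75 to 8.78% and 6.26 to 8.53%, and cover counting error only. The share depends on depth: with each cell thinned to 5000 UMIs it was 1.69 ± 0.663% (SD, n = 3), with 118 shallower cells left out. Most positive cells lay close to the threshold. Of 7516 cells without immune UMIs, 5983 had 0 class II UMIs and 987 had 1, just outside the rule, while 272 had 2, just inside it. A further 116 cells had 3 UMIs and 66 had 4. A count of at least 6 was reached by 55 cells, 18 in library 1, 26 in library 2 and 11 in library 3, and the highest count was 31. Another 28 cells met the class II threshold but had an immune UMI and were left out by the rule.

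**Figure D1:**
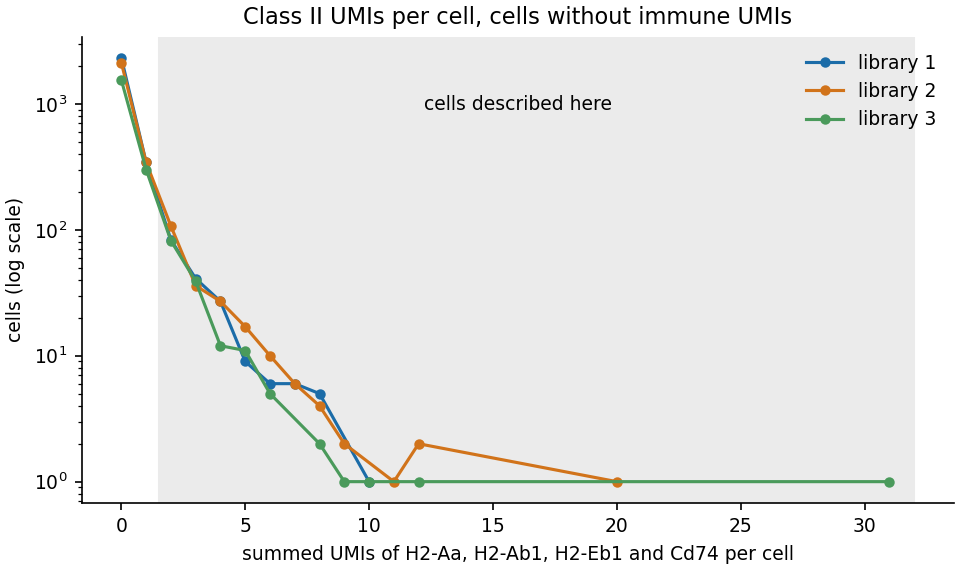
Number of cells (log scale) at each summed UMI count of H2-Aa, H2-Ab1, H2-Eb1 and Cd74, for cells without immune UMIs in each of the 3 libraries, with the class II positive cells in the shaded range. Counts fall off steadily, with 5983 cells at 0, 987 at 1, 272 at 2 and a highest value of 31, and show no gap at the threshold.

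The 4 genes of the rule are given as a description, since they chose the cells. H2-Ab1, the beta chain of I-A, was at 77.7, 103.8 and 75.2 CPM (counts scaled to a common total of UMIs per library and class) in the class II positive cells of libraries 1, 2 and 3, and was found in 425 of the 546 cells (77.8%). H2-Eb1, the beta chain of I-E, was at 46.3, 75.9 and 56.8 CPM and was found in 61.0% of the cells. H2-Aa, the alpha chain of I-A, was at 20.01, 26.2 and 13.4 CPM and was found in 27.7%. Cd74 was at 18.9, 33.5 and 19.1 CPM and was found in 25.5%. All 4 had their highest level in library 2. A single gene gave all class II UMIs of 162 cells (29.7%), 281 cells (51.5%) had 2 of the genes, 88 (16.1%) had 3 and 15 (2.75%) had all 4.

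Each of the 4 genes was also described in cells picked by the other 3 genes. Where cells were picked by at least 2 UMIs of 3 of the genes, the gene left out was higher in every library than in Six2-positive cells with 0 UMIs of those 3. H2-Ab1 then averaged 68.5 ± 16.1 CPM, against 7.52 ± 1.3 CPM (SD, n = 3 libraries). H2-Eb1 averaged 44.4 ± 16.6 CPM, against 4.39 ± 0.986 CPM. H2-Aa averaged 14.2 ± 5.10 CPM, against 1.06 ± 0.293 CPM, and Cd74 averaged 15.7 ± 4.60 CPM, against 1.29 ± 0.440 CPM. For each gene the lowest library of the picked cells was above the highest library of the others. Even so, the gene left out was found in only part of the picked cells. The shares were 56.9% for H2-Ab1, 42.4% for H2-Eb1, 18.6% for H2-Aa and 16.4% for Cd74. These values restate the rule in parts and get no test.

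The label of these cells as progenitors was checked on markers of the lineage. Six2 was found in 464 of the 546 class II positive cells (85.0%), against 80.7% of the 5983 cells with 0 UMIs of the 10 genes. Cited1, which marks the least committed progenitors, was found in 68.9% against 61.2%, and Eya1, a partner of Six2, in 95.2% against 91.3%. At 5000 UMIs per cell these shares were 49.3% against 47.7% for Six2, 42.5% against 40.2% for Cited1 and 67.9% against 68.1% for Eya1. Wnt4, which is switched on when progenitors commit to form a nephron, was found in 5.49% against 5.25%, and Lhx1, a transcription factor of the early nephron, in 1.28% against 0.852%. At 5000 UMIs the class II positive cells thus carried Six2, Cited1 and Eya1 in shares close to those of the cells with 0 UMIs of the 10 genes. The shares describe likeness to other sorted cells and do not show that each cell was uncommitted.

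Immune markers outside the rule were also summed. The rule had already taken cells with a UMI of the 6 immune genes out of both sets. Low levels of other immune markers were therefore favoured in advance. The other macrophage markers (18 listed, 17 in the matrix) summed to 10.7 to 14.0 CPM per library in class II positive cells and to 12.3 to 13.5 CPM in comparison cells. In the 74 macrophage-like cells of the libraries, which had at least 5 UMIs of the 6 immune genes, the same markers summed to between 12143 and 15691 CPM. Aif1, Mrc1, Adgre1, Cd52, Ctss, Ms4a7 and Cd14 were at 0 in all class II positive cells. All 17 had UMIs in comparison cells. Those cells held 74822810 UMIs in all, against 9505245 in class II positive cells, so a value of 0 does not weigh the same in both sets. Markers of B cells, T cells and dendritic cells (16 listed, 15 in the matrix) summed to 11.7 to 19.9 CPM in class II positive cells and to 14.4 to 23.3 CPM in comparison cells, and 10 of them, among them Ms4a1, Cd3e, Itgax, Flt3 and Xcr1, were at 0 in the class II positive cells. Zbtb46, a transcription factor known from dendritic cells, was found in 21.2% of class II positive and 21.1% of comparison cells.

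The macrophage-like cells held few class II transcripts. H2-Aa and H2-Ab1 were at 0 UMIs in all 74 of them, H2-Eb1 had 2 UMIs and Cd74 had 13 UMIs. The I-A and I-E chains H2-Aa, H2-Ab1 and H2-Eb1 together were at 2.65 CPM in the macrophage-like cells (exact Poisson 95% interval of the pooled count 0.321 to 9.57), at 20.2 CPM in Six2-negative cells without immune UMIs (18.2 to 22.4) and at 21.5 CPM in Six2-positive ones (20.6 to 22.4). Cd74 ran the other way, at 17.2 CPM in macrophage-like cells (9.17 to 29.4) and at 2.73 CPM in Six2-positive cells (2.41 to 3.08). The genes therefore stood in different ratios in the 2 kinds of cell, with 13 Cd74 UMIs to 0 H2-Ab1 UMIs in macrophage-like cells and 264 to 1105 in Six2-positive cells.

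The share of cells with any class II UMI has to be read against depth and free RNA. At least 1 class II UMI was found in 1280 of 6110 Six2-positive cells (20.9%, median 14862 UMIs per cell), in 253 of 1406 Six2-negative cells (17.99%, median 12925.5 UMIs) and in 14 of 74 macrophage-like cells (18.9%, median 9373.5 UMIs). Committing cells, with at least 2 Wnt4 UMIs and no Lhx1, had it in 31 of 123 (25.2%, median 21138 UMIs), and early nephron cells, with at least 2 Lhx1 UMIs, in 9 of 29 (31.0%, median 23156 UMIs). Thinned to 5000 UMIs, the shares were 9.35% in Six2-positive cells, 7.85% in Six2-negative cells, 8.13% in committing cells, 6.90% in early nephron cells and 7.25% in macrophage-like cells, and their intervals overlapped. Of 19 cells with at least 20 collagen UMIs, a sign of stroma, 0 had a class II UMI (exact 95% upper bound 17.6%, full depth). The summed share at this depth did not set the Six2-positive cells apart from any of these kinds of cell, so a single class II UMI is not read here as expression by the cell that holds it. A count of at least 2, as in the rule, was held at full depth by 7.59% of Six2-positive and 5.83% of Six2-negative cells. In committing, early nephron and macrophage-like cells this share was 7.32%, 3.45% and 1.35%. Thinned to 5000 UMIs, the 5 shares in the same order were 1.70%, 2.07%, 0.813%, 0% and 0%, and their intervals overlapped. At full depth, H2-Ab1 alone was found in 12.7% of Six2-positive cells and in 0 of 74 macrophage-like cells, which are shallower.

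**Figure D2:**
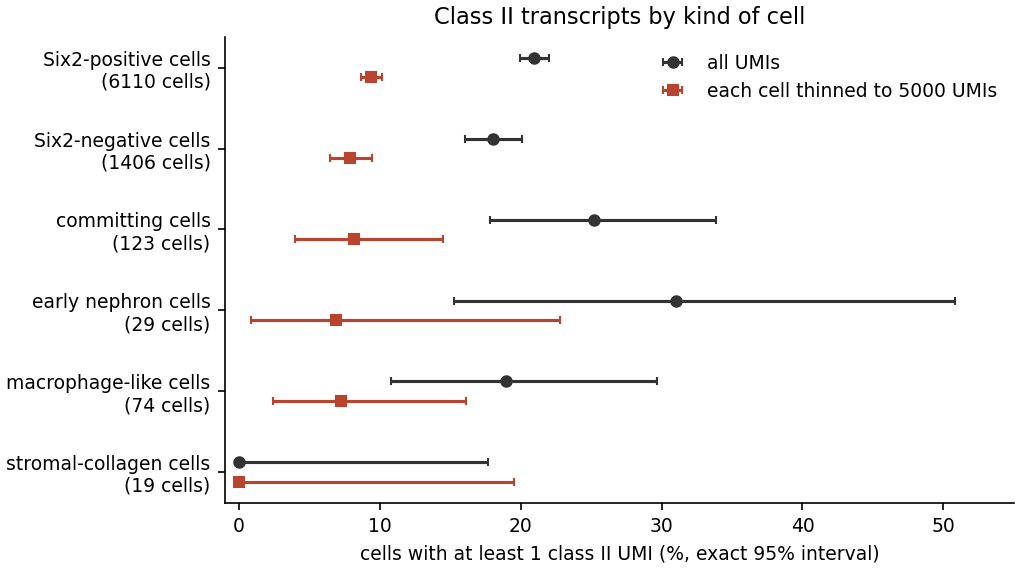
Share of cells with at least 1 UMI of H2-Aa, H2-Ab1, H2-Eb1 or Cd74 in 6 kinds of cell, with exact 95% binomial intervals, at full depth (circles) and with each cell thinned to 5000 UMIs (squares). The thinned shares of the first 5 kinds lie between 6.90% and 9.35%, and the intervals overlap.

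The peptide-loading genes H2-DMa and H2-DMb1, which had no part in the rule, were higher in class II positive cells than in comparison cells of the same library. H2-DMa was at 16.9, 26.5 and 13.0 CPM in class II positive cells of libraries 1, 2 and 3, against 5.07, 6.44 and 6.02 CPM in comparison cells, from 178 and 431 UMIs. H2-DMb1 was at 4.29, 12.9 and 9.70 CPM in class II positive cells, against 1.61, 2.97 and 2.52 CPM in comparison cells, from 83 and 171 UMIs. For both genes every library of class II positive cells lay above every library of comparison cells, and library 2 was the highest among the class II positive cells. In edgeR's quasi-likelihood test with the library as a block, the log2 fold change was 1.67 ± 0.16 for H2-DMa (SE; Benjamini-Hochberg adjusted p = 3.3e-06) and 1.88 ± 0.22 for H2-DMb1 (adjusted p = 2.6e-05). Across all genes tested, 86 of 12246 (0.702%) passed the threshold of 0.05, 66 of them higher (0.539%) and 20 lower (0.163%). H2-DMa and H2-DMb1 had come up with the class II chains when these same cells were examined earlier, so the values are not independent evidence of that link.

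Both genes passed in each other choice of cells that was tried. With only cells between the 25th and 75th percentile of UMIs of their library, the log2 fold change was 1.74 for H2-DMa (adjusted p = 5.3e-05, edgeR) and 1.92 for H2-DMb1 (adjusted p = 0.00109). Without the cells of highest doublet score it was 1.69 and 1.93, and with Six2 of at least 1 required in the class II positive cells as well it was 1.64 and 1.81, all past the threshold. The doublet caller did not work on these cells, so doublets may remain after the highest scores are left out. It was larger where the rule asked for a summed count of at least 5, at 2.50 and 3.18. Both calls were lost in the fit without the library as a block (adjusted p = 0.704 for H2-DMa and 1.0 for H2-DMb1), which leaves the differences between tubes in the error.

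The mean levels of both genes were highest at 4 or more class II UMIs. H2-DMa averaged 5.84 CPM in comparison cells, 9.56 CPM in cells with 1 class II UMI, 12.0 CPM with 2, 15.0 CPM with 3, 33.6 CPM with 4 or 5 and 36.7 ± 8.32 CPM with 6 or more (SD, n = 3 libraries). H2-DMb1 averaged 2.37, 4.38, 3.90, 9.21, 15.7 and 24.99 ± 5.56 CPM over the same classes. H2-DMa was found in 28 of the 55 cells with at least 6 class II UMIs (50.9%) and H2-DMb1 in 19 (34.5%), against 8.41% and 3.23% of comparison cells. The libraries were spread widely, with H2-DMb1 at 1.23, 15.9 and 10.5 CPM at 3 UMIs and at 4.41, 17.01 and 25.8 CPM at 4 or 5. In library 3, H2-DMa was at 36.1 CPM at 4 or 5 UMIs and at 31.9 CPM at 6 or more. Neighbouring classes therefore cannot be put in order beyond their spread.

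**Figure D3:**
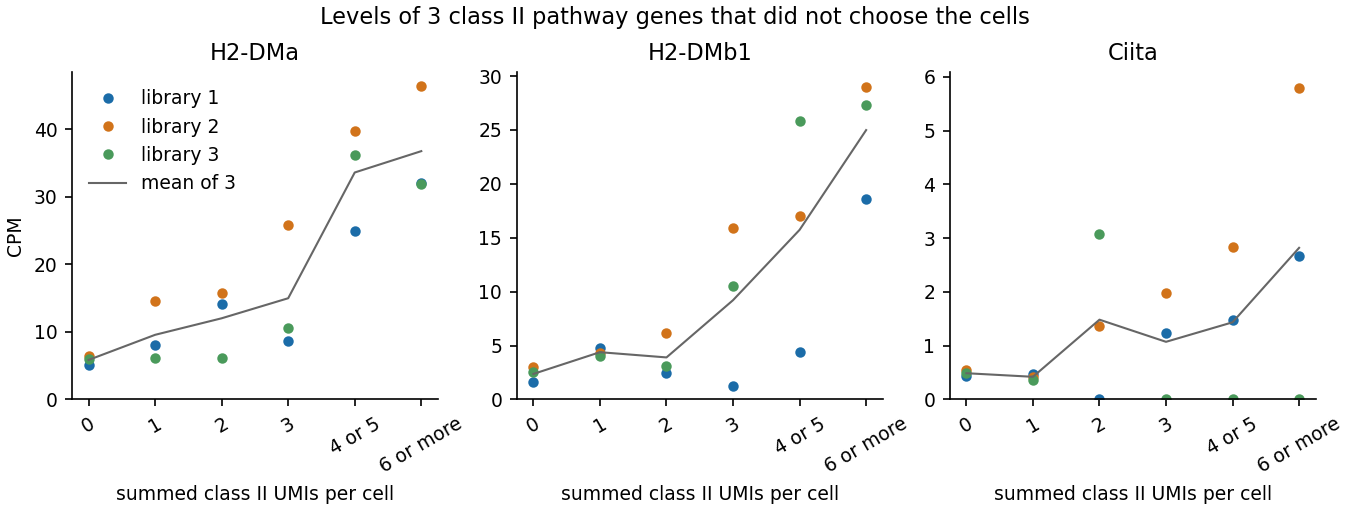
Level in CPM of H2-DMa, H2-DMb1 and Ciita at each summed class II UMI count per cell, with comparison cells at 0; points are the 3 libraries and the line joins their means. The means of H2-DMa run from 5.84 CPM at 0 to 36.7 CPM at 6 or more and those of H2-DMb1 from 2.37 to 24.99 CPM, while Ciita rests on 0 to 5 UMIs in each library from a count of 2 upward.

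Ciita, the coactivator through which class II genes are switched on, had few UMIs and did not pass the test. It had 3, 7 and 5 UMIs in class II positive cells of libraries 1, 2 and 3 (0.857, 2.32 and 1.67 CPM), against 13, 12 and 11 UMIs in comparison cells (0.428, 0.541 and 0.494 CPM). Every class II positive library was above every comparison library, and in edgeR the log2 fold change was 1.66 ± 0.50 (SE) with an unadjusted p of 0.00297 and an adjusted p of 0.188. In cells with at least 6 class II UMIs, Ciita had 1, 2 and 0 UMIs. None of the 11 regulators tested passed, and their median log2 fold change was 0.07, against -0.003 over all genes. The RFX subunits had log2 fold changes of 0.07 ± 0.14 (Rfx5), 0.14 ± 0.08 (Rfxap) and -0.29 ± 0.16 (Rfxank), and those of the NF-Y subunits Nfya, Nfyb and Nfyc lay between 0.01 and 0.08.

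Of the 12 other genes of class II loading, 7 had enough UMIs to test, and H2-DMa and H2-DMb1 were the 2 that passed (median log2 fold change of the 7 genes 0.08). The lysosomal proteases Ctsb, Ctsd, Ctsl and Lgmn and the reductase Ifi30, which prepare antigen in many cell types, had log2 fold changes between 0.02 and 0.19, none past the threshold. In all, class II positive cells held 9505245 UMIs and comparison cells 74822810, so raw counts of the 2 sets are on unlike scales. H2-Oa, a subunit of the H2-DM inhibitor H2-DO, had 9 UMIs in class II positive cells and 47 in comparison cells. In libraries 1, 2 and 3 this was 0.857, 1.33 and 0.669 CPM against 0.527, 0.676 and 0.719 CPM. Its partner H2-Ob had 0 UMIs in both. H2-Eb2 had 4 and 1 UMIs. Ctss, the protease that trims the invariant chain in antigen-presenting cells, had 0 UMIs in class II positive cells and 17 in comparison cells (0.231, 0.315 and 0.135 CPM). H2-DMb2, a near copy of H2-DMb1 with which it may share reads, had 2 and 5 UMIs (0, 0.332 and 0.334 CPM against 0.0988, 0.0450 and 0.0449 CPM).

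The class II and H2-DM genes lie together on chromosome 17, and the genes tested between H2-Oa and H2-Eb2 (GRCm38, 34092340 to 34341412) did not all move. Apart from H2-DMa (34119541 to 34139101) and H2-DMb1 (34153072 to 34160230), Brd2 and Tap1 were tested there. Brd2, a chromatin reader whose gene overlaps the annotated span of H2-DMa on the opposite strand, averaged 130.9 CPM in class II positive cells and 133.2 CPM in comparison cells, with a log2 fold change of -0.03 ± 0.05 (SE; edgeR adjusted p = 0.893). Tap1, a peptide transporter of the class I pathway, averaged 1.997 and 1.34 CPM, with a log2 fold change of 0.57 ± 0.37 (edgeR adjusted p = 0.698).

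Genes of class I antigen presentation and of the interferon response did not pass. Of 22 class I genes listed, 15 were tested and 0 passed, with a median log2 fold change of 0.13. B2m, the class I light chain, was at 31.7, 49.4 and 40.8 CPM in class II positive cells, against 39.6, 36.4 and 41.0 CPM in comparison cells, and the ranges overlapped. H2-D1, a class I heavy chain, was at 4.86, 5.31 and 5.35 CPM, against 2.67, 3.56 and 2.97 CPM, which did not pass (log2 fold change 0.75 ± 0.23, SE; edgeR adjusted p = 0.216). H2-T23 had a log2 fold change of 1.17 ± 0.38 (adjusted p = 0.243) and was higher in 2 of 3 libraries. Class I heavy chains resemble each other, so their counts are uncertain between genes. Of 40 interferon response genes listed, 22 were tested and 0 passed, with a median of 0.01. Irf1, a transcription factor that interferon gamma induces, had a log2 fold change of 0.04 ± 0.15. The interferon gamma receptor genes Ifngr1 and Ifngr2 had -0.02 ± 0.13 and -0.06 ± 0.09. Gbp2, Gbp3, Irgm2, Ifi47, Ifit1 and Cxcl9 were at 0 UMIs in class II positive cells and had too few UMIs to test. In comparison cells Irgm2, Ifi47 and Cxcl9 were at 0 too, Gbp2 and Gbp3 had 1 UMI each, and Ifit1 had 13, all in library 2. The design recovered 98.5% of genes changed 2-fold in simulated counts of this comparison. A gene that missed the threshold is not thereby shown to be equal in both sets of cells.

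Marker genes of the nephron lineage did not pass over all class II positive cells. None of 14 uncommitted progenitor markers tested passed, and their summed level was 2065, 2999 and 2247 CPM in class II positive cells, against 2086, 2994 and 2310 CPM in comparison cells. Cited1 was at 144.1, 220.8 and 202.9 CPM, against 140.6, 188.9 and 182.0 CPM, with a log2 fold change of 0.13 ± 0.04 (SE; edgeR adjusted p = 0.240). Eya1 had -0.07 ± 0.04 and Wt1, a transcription factor the progenitors need to survive, had -0.10 ± 0.03, neither past the threshold. With a Six2 UMI required in the class II positive cells too, which leaves 464 of them, 205 of 12176 genes passed (1.68%), 147 higher (1.21%) and 58 lower (0.476%), and a few markers then passed by small amounts. Cited1 was higher, at 145.0, 223.1 and 212.1 CPM against 140.6, 188.9 and 182.0 CPM (log2 fold change 0.17 ± 0.04, SE; edgeR adjusted p = 0.0204). Pax2, a transcription factor of the whole nephron lineage, was lower, at 134.0, 141.7 and 121.4 CPM against 143.8, 164.9 and 141.7 CPM (-0.19 ± 0.05; adjusted p = 0.0162). The groups overlapped for Cited1, and for Pax2 as well. The committing marker Ccnd1, which drives entry into the cell cycle, was lower too (-0.21 ± 0.05; adjusted p = 0.0119). Over all class II positive cells, none of 10 committing markers, 5 early nephron markers, 8 stromal markers, 3 ureteric markers, 2 endothelial markers, 3 podocyte and tubule markers, 10 heat shock genes and 5 sex-linked genes passed, nor did the 2 macrophage markers and the 1 marker of B, T and dendritic cells that could be tested. No erythroid marker had enough UMIs to test. Of the sex-linked genes, Xist was lower where Six2 was required (-0.15 ± 0.03; edgeR adjusted p = 0.00153).

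**Figure D4:**
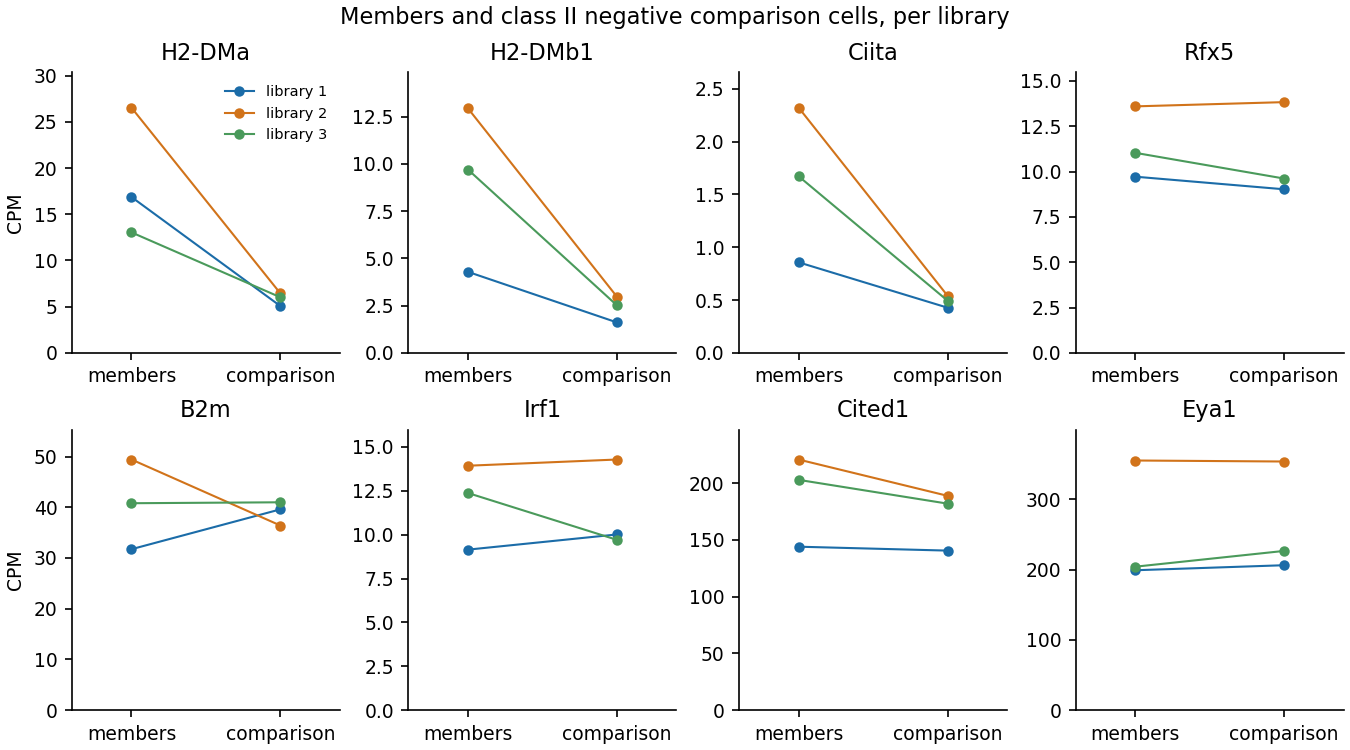
Level in CPM of 8 genes in class II positive cells (members, left in each panel) and in comparison cells of the same library (right), with 1 line for each of the 3 libraries. H2-DMa, H2-DMb1 and Ciita are higher in the class II positive cells of every library, with H2-DMa and H2-DMb1 past the threshold, while Rfx5, B2m, Irf1, Cited1 and Eya1 did not pass.

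Many of the other genes that passed belong to the lists of cell division genes, which hold 21 of the 86. Among 24 tested genes of G2 and M, 17 were higher in class II positive cells (median log2 fold change 0.34), and of 20 S phase genes 4 were higher (Tyms, Rrm1, Gmnn and Rrm2; median 0.08). Without library 3, 10 of the G2 and M genes and 0 of the S phase genes passed, among 44 genes in all. Top2a, the topoisomerase that untangles sister chromatids, was at 283.0, 296.8 and 324.0 CPM in class II positive cells, against 218.0, 236.3 and 212.7 CPM in comparison cells, with a log2 fold change of 0.42 ± 0.04 (SE; edgeR adjusted p = 3.9e-06). The groups did not overlap for Top2a, nor for Prc1, which bundles spindle microtubules, at 58.7 ± 0.556 CPM against 38.7 ± 2.89 CPM (SD, n = 3). Aurkb and Ndc80, which act where chromosomes meet the spindle, had log2 fold changes of 0.59 ± 0.07 and 0.58 ± 0.10. Also higher among the largest changes were Gsg2 (0.68 ± 0.14), a histone kinase of mitosis, Neil3 (0.65 ± 0.11), a DNA glycosylase, Ckap2l (0.56 ± 0.09), a spindle protein, and Hist1h1b (0.54 ± 0.10), a linker histone.

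In the middle range of UMIs, none of the genes on these lists passed as higher. Between the 25th and 75th percentile of UMIs of each library, where the medians were 16040.5, 11891 and 16503 UMIs in class II positive cells and 15984.5, 11954.5 and 15801.5 UMIs in comparison cells of libraries 1, 2 and 3, 28 of 11282 genes passed (0.248%), 6 higher (0.0532%) and 22 lower (0.195%). Of the 24 G2 and M phase genes 0 were then higher, Cenpe and Hmgb2 were lower, and 0 had a log2 fold change above 0 (median -0.27). Top2a was at -0.22 there, Aurkb at -0.16, Ndc80 at -0.90 and Ckap2l at -0.63, none past the threshold. Other division genes kept a log2 fold change above 0 without passing: Gsg2 was at 0.79 ± 0.33 (SE), Neil3 at 0.31 ± 0.31, Prc1 at 0.29 ± 0.23 and Gmnn at 0.11 ± 0.09. G2 and M phase genes took 0.399%, 0.464% and 0.448% of UMIs in all class II positive cells, against 0.353%, 0.391% and 0.345% in comparison cells. In the middle range they took 0.204%, 0.180% and 0.169%, against 0.212%, 0.221% and 0.214%. Of 85 genes that passed over all cells and were tested there, 6 passed again, 5 in the same direction and Hmgb2 in the opposite one. Crym, an uncommitted progenitor marker, passed there as higher (0.23 ± 0.04; edgeR adjusted p = 0.0113), and the committing marker Id2 (-0.27 ± 0.06; adjusted p = 0.0482) and the heat shock genes Hspd1, Hspe1 and Hsp90aa1 (-0.14 to -0.18) passed as lower. This range holds fewer cells, and the share of G2 and M phase UMIs was lower in it for both sets of cells. The part of depth and of dividing cells in these values was not tested.

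**Figure D5:**
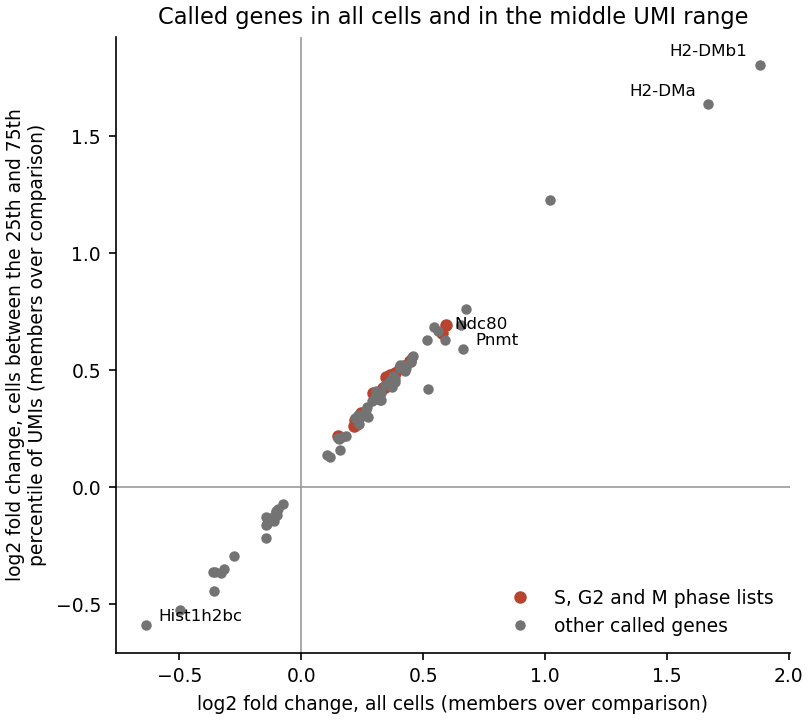
Log2 fold change (class II positive cells over comparison cells) of the 86 genes that passed over all cells, on the x axis. The y axis holds the same genes with at least 1 Six2 UMI required in the class II positive cells. S, G2 and M phase list genes are in red. The printed title and y axis label are wrong: they name the middle range of UMIs, whose values are not drawn. In that range 0 of 24 G2 and M phase genes and 10 of 20 S phase genes had a log2 fold change above 0. H2-DMa, H2-DMb1 and Pnmt stay high and Hist1h2bc stays low on both axes, and 0 of the 66 genes higher over all cells lie below 0 on the y axis.

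Beside H2-DMa and H2-DMb1, Pnmt was the only other named gene that passed as higher both over all cells and in the middle range of UMIs. Pnmt, which encodes the enzyme that makes adrenaline from noradrenaline, was at 20.6, 17.9 and 19.7 CPM in class II positive cells, against 11.3, 12.7 and 12.7 CPM in comparison cells. The groups did not overlap, and the log2 fold change was 0.66 ± 0.12 (SE; edgeR adjusted p = 0.00525), 0.92 in the middle range (adjusted p = 0.0107) and 1.32 with a summed class II count of at least 5. The call was lost without library 1 (0.56, adjusted p = 0.113), without library 3 (0.68, adjusted p = 0.0534), with DESeq2 (0.66, adjusted p = 0.187) and with cells thinned to 5000 UMIs (1.12, adjusted p = 0.521).

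Of the 20 genes that were lower, Hist1h2bc, a core histone gene whose transcripts can be polyadenylated and which may share reads with its near-identical copies, fell the most. It was at 51.2, 43.4 and 55.8 CPM in class II positive cells, against 81.6, 64.1 and 85.5 CPM in comparison cells, and the groups did not overlap. Its log2 fold change was -0.64 ± 0.07 (SE; edgeR adjusted p = 5.5e-06), -0.79 in the middle range (adjusted p = 0.000653) and -1.18 with a summed class II count of at least 5. The call was lost with cells thinned to 5000 UMIs (-0.87, edgeR adjusted p = 0.176). The other named genes that were lower had smaller changes and overlapping groups. Of 15 immediate early genes tested, 3 were lower and 0 higher: Myc (-0.32 ± 0.05), Junb (-0.15 ± 0.03) and Ier2 (-0.14 ± 0.02), and none of these passed in the middle range. Ier2 was at 475.3, 1405 and 699.5 CPM in class II positive cells, against 543.1, 1508 and 758.7 CPM in comparison cells. Egr4, another early response gene, had -0.50 ± 0.08. It did not pass in the middle range (-0.39, edgeR adjusted p = 0.266). Nor did it pass with a summed class II count of at least 3 (-0.30) or at least 5 (-0.18). Enc1 (-0.36 ± 0.08), an actin-associated protein, Pcdh8 (-0.36 ± 0.08), a protocadherin, Rhot1 (-0.36 ± 0.08), a mitochondrial transport protein, Aldh1a2 (-0.33 ± 0.06), which makes retinoic acid, and Ap3s1 (-0.28 ± 0.04), an adaptor subunit of vesicle transport, completed the list. None of these 5 passed in the middle range, where Aldh1a2 was at -0.46 and Ap3s1 at -0.29, no closer to 0 than over all cells.

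Among the class II positive cells, the 55 cells with at least 6 class II UMIs were compared with the 388 cells with 2 or 3. Of 8575 genes tested, 2 passed (0.0233%), both lower: Cdc20, the activator of the mitotic ubiquitin ligase, at 50.6, 92.7 and 59.3 CPM against 117.9, 153.2 and 123.3 CPM, and Cenpa, the centromeric histone, at 82.6, 92.7 and 63.8 CPM against 140.5, 160.8 and 159.8 CPM. The log2 fold changes were -0.95 ± 0.17 for Cdc20 and -0.89 ± 0.16 for Cenpa (SE; edgeR adjusted p = 0.014 for both), and the groups did not overlap. The median depth was 15718 UMIs in the cells with at least 6 and 16142 UMIs in those with 2 or 3. H2-DMa (1.51 ± 0.34, adjusted p = 0.115) and H2-DMb1 (2.24 ± 0.47, adjusted p = 0.097) did not pass. In simulated counts of this comparison 54% of genes changed 2-fold were recovered. Without library 1 no gene passed, and 4 and 7 passed without libraries 2 and 3.

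The 987 cells with a single class II UMI, just outside the rule, were compared with the same 4830 comparison cells, which are thus shared between both comparisons. Of 12390 genes tested 182 passed (1.47%), 133 higher (1.07%) and 49 lower (0.395%). H2-DMb1 was higher at 4.82, 4.26 and 4.07 CPM in cells with 1 UMI, against 1.61, 2.97 and 2.52 CPM in comparison cells (log2 fold change 0.94 ± 0.22, SE; edgeR adjusted p = 0.00483). H2-DMa was at 8.08, 14.499 and 6.11 CPM, against 5.07, 6.44 and 6.02 CPM (0.68 ± 0.15; adjusted p = 0.00125). The call on H2-DMa was lost without library 2 (0.38, adjusted p = 0.581) and that on H2-DMb1 without library 1 or 3, and neither passed in the middle range of UMIs (0.86 and 1.12). Of the cell division genes, 14 of 24 of G2 and M and 9 of 20 of the S phase were higher, and 6 of 15 immediate early genes were lower. Early nephron genes led the list by fold change, with Osr2 at 13.7, 1.71 and 3.15 CPM against 1.22, 1.26 and 0.719 CPM (2.60 ± 0.25), Lhx1 at 2.21 ± 0.30 and the committing gene Wnt4 at 1.08 ± 0.14 on the log2 scale. Comparison cells had to have a Six2 UMI and cells with 1 class II UMI did not. Without library 1 neither Osr2 (1.32, adjusted p = 0.128) nor Wnt4 (0.58, adjusted p = 0.329) passed, and Wnt4 did not pass in the middle range (0.18), where 21 genes passed in all.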

How the data were processed

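Single-cell RNA of sorted nephron progenitors was counted in 3 libraries. The authors deposited raw counts of UMIs per gene and cell (27998 genes, 7924 barcodes), and the submitters' processing notes name Cell Ranger 1.3.1 and mm10. The deposited gene and barcode lists hold names, not values, and serve only as row and column labels. The barcode suffix gave the library. The sources used here tie no suffix to a label, and no comparison needs the link. They give neither reads per library nor whether counting used strand.

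Kept cells had at least 1000 genes and at most 10% mitochondrial UMIs. The members and all gene lists were chosen with earlier results of these data known. UMIs were summed per library and class of cell and tested with edgeR 4.0.16 under R 4.3.3 (quasi-likelihood test, TMM scaling, filterByExpr, library as block, Benjamini-Hochberg adjustment over all genes tested, threshold 0.05, two-sided). The 11 genes of the rule entered library sizes but were not tested (10 in the comparison within the class II positive cells, where Six2 was tested). The block was used because both classes come from the same tube: deviations from the class means correlated within libraries at 0.857, 0.906 and 0.566 over 8005 genes. The p-values reflect the spread of within-tube differences over 3 tubes, which may be technical. Median log2 fold changes of all genes were near 0 under this scaling.

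Genes were named by a rule: genes of the rule, passing class II pathway genes and Ciita, the 10 largest increases and decreases past the threshold with the same direction in 3 of 3 libraries and a mean CPM of at least 5, and up to 4 passing genes of each other list by smallest p. Beyond it, list members that did not pass, the genes of the class II region and genes that passed in other choices of cells were named after their values were seen. Scrublet's method in scanpy 1.11.5 called 23 of 7898 cells (0.291%), which for this many cells means that it has not worked. Doublets were therefore taken as present, and an alternative left out cells above the percentile set for the top 6%, which held 5.32% of cells. The test was tried on simulated counts with 200 genes changed 2-fold. Promoters came from RefSeq (GRCm38.p6) and gene positions from GENCODE on GRCm38. Alternatives were RLE scaling, no filter, DESeq2 1.42.0, no block, leaving out each library, and other choices of cells. The wider immune exclusion without Zbtb46 and the middle range of UMIs for cells with 1 class II UMI were added after seeing the data.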

Additional observations from a re-analysis of the deposited data

How the results depend on the processing

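For class II positive against comparison cells 86 genes passed. Each other fit was counted in full: 86 genes passed with RLE scaling, 193 with no filter on low counts (97 higher, 96 lower), 33 with DESeq2 and 44 to 87 with 1 library left out, the lowest without library 3. Other cells gave 205 genes with Six2 required on both sides, 40 with a summed count of at least 5, 142 without the highest doublet scores, 28 in the middle range of UMIs, 9 with cells thinned to 5000 UMIs (2 higher, 7 lower) and 17 with a wider list of immune genes at 0. That list held Zbtb46, and without it 66 passed. Of the 86 genes themselves, 85 passed again with Six2 required, 33 with DESeq2 and 36 to 68 with 1 library left out. The wider list of immune genes kept 15 of them. With cells thinned to 5000 UMIs, 85 of them were tested and 5 passed again. Only 2 of those kept their direction, and the rest passed in the opposite one. Without the replicate block 0 passed (edgeR; 445 at an unadjusted p under 0.05, against 1110 with it), and the cause is the fit's own construction, which leaves the differences between tubes in the error. For cells with 1 class II UMI the 182 genes became 21 with DESeq2, 21 in the middle range of UMIs, 0 without the replicate block (328 unadjusted) and 119 (without library 3) to 181 with 1 library left out. For the 2 genes that differed within the class II positive cells the counts were 12 with no filter, 0 with DESeq2 (55 unadjusted), 0 without the replicate block (243 unadjusted) and 0 to 7 with 1 library left out. The share of class II positive cells, 6.98%, was 3.48% with a summed count of at least 3, 1.69% at 5000 UMIs and 6.61 to 7.52% with 1 library left out. H2-DMa kept its call in every alternative but the fit without the block, and H2-DMb1 likewise where an adjusted p was given, DESeq2 giving none.

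Signs turned in 2 alternatives. In the middle range of UMIs, class II positive over comparison cells, the log2 fold change was -0.16 for Aurkb, -0.90 for Ndc80, -0.63 for Ckap2l, -0.10 for Hist1h1b, 0.037 for Junb, -0.13 for Tyms, -0.088 for Rrm2, -0.053 for Rrm1, -0.22 for Top2a, -0.062 for Smc4 and -0.44 for Ube2c. With cells thinned to 5000 UMIs, which also chose the class II positive cells again on thinned counts and left 41, 66 and 26 of them, it was -0.37 for Gsg2, -0.26 for Neil3, -0.016 for Aurkb, -0.60 for Prc1, -0.56 for Ndc80, -1.16 for Ckap2l, -0.40 for Tyms, -0.21 for Rrm2, -0.54 for Top2a, -0.38 for Smc4 and -0.77 for Ube2c. For cells with 1 class II UMI in the middle range it was -0.11 for Bard1, 0.038 for Pcdh8, -0.058 for Rrm2, -0.020 for Gmnn, -0.10 for Pcna, -0.25 for Top2a, 0.0036 for Fos and 0.11 for Junb. The cause was not tested. Depth limits the low genes most: Ciita rested on 15 UMIs in class II positive cells.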
